A study of Homo sapiens with 8 samples.

Results

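The 8 genes described here set how much of the translation factor eIF2 is phosphorylated on its alpha subunit. They were taken by symbol from the deposited table of counts, which holds 35394 genes: the 4 eIF2alpha kinases EIF2AK1, EIF2AK2, EIF2AK3 and EIF2AK4, GCN1 and IMPACT, which act on EIF2AK4, and PPP1R15A and PPP1R15B, the regulatory subunits of the eIF2alpha phosphatase. All 8 were in the table and all 8 passed the filter on low counts. The cells were HCT116, a human colorectal cancer line of epithelial type, labelled as carrying a ras mutation in every sample. Cells of 4 libraries had received PZH (Pien Tze Huang, a multi-component remedy of Chinese medicine) for 24 h, and cells of 4 control libraries the solvent DMSO. The PZH dose and the time of exposure to DMSO were not stated. The labels also do not say whether libraries of a group came from separate cultures, so p-values measure the spread between these libraries.

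eIF2 carries the initiator tRNA to the ribosome, and its exchange factor eIF2B reloads it with GTP after each round. Phosphorylation of eIF2alpha turns eIF2 into an inhibitor of eIF2B, which lowers general translation while mRNAs such as that of the transcription factor ATF4 are translated more, a programme called the integrated stress response. Each kinase reads another stress: EIF2AK1 (HRI) lack of heme and mitochondrial stress, EIF2AK2 (PKR) double-stranded RNA, EIF2AK3 (PERK) unfolded proteins in the endoplasmic reticulum (ER), and EIF2AK4 (GCN2) lack of amino acids and stalled ribosomes. PPP1R15A (GADD34) and PPP1R15B (CReP) bring the catalytic subunit of protein phosphatase 1 (PP1) to eIF2alpha and so reverse the mark. The counts measure mRNA only, and neither the phosphorylation of eIF2alpha nor the activity of any kinase was measured. In bulk RNA, fewer cells with a transcript and less of it per cell cannot be told apart.

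Library totals were 19288836 to 19917571 counts under DMSO and 18144117 to 18868057 under PZH. Levels are given as CPM, counts scaled to library size and corrected for library composition with TMM factors, as mean ± SD with n = 4 per group, and a rise or fall means an adjusted p under 0.05 by edgeR's quasi-likelihood test over 15006 genes. Epithelial markers EPCAM, CDH1, KRT8, KRT18 and KRT19 were abundant, and the 8 markers of the list summed to 3847 to 3915 unscaled CPM in DMSO and 2382 to 2707 in PZH, with KRT8 falling 1.91-fold and CDH1 rising 3.12-fold. Of the intestinal markers, CDX2 held 1141 counts over the 4 DMSO and 622 over the 4 PZH libraries, KRT20 held 115 and 2, and VIL1 held 4 and 1. Sums over markers of other cell types were 11.7 to 14.3 and 17.5 to 21.3 CPM for 6 fibroblast markers, nearly all of it COL1A1, with COL1A2 at 0 counts in all 8 libraries. They were 1.09 to 1.68 and 0.265 to 0.882 CPM for 5 endothelial markers, and 0.255 to 3.61 and 0.107 to 1.76 CPM for 7 immune and blood markers.

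The promoters of the members that rose are shown first, and whether their motifs bear on the changes was not tested. RefSeq (GRCh38.p14) gave a window of 300 bases, 250 before and 50 after the gene start, for 7 of the 8 members: EIF2AK2, EIF2AK3, EIF2AK4, GCN1, IMPACT, PPP1R15A and PPP1R15B. The 250 bases before the start of PPP1R15A (chr19:48872171-48872420, plus strand), PPP1R15B (chr1:204411818-204412067, minus strand) and EIF2AK3 (chr2:88627465-88627714, minus strand) read, 5′ to 3′ on the gene's strand, with the matches named below in capitals:
PPP1R15A: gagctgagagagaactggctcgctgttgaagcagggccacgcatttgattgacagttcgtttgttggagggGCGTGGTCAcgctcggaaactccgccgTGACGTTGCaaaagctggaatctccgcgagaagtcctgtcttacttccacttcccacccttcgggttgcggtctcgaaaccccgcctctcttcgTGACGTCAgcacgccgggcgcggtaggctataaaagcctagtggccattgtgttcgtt
PPP1R15B: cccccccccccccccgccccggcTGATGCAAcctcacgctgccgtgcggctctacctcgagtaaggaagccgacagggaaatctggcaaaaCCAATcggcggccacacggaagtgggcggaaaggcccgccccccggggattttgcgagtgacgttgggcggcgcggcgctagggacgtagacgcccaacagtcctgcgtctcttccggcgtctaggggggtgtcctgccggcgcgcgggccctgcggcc
EIF2AK3: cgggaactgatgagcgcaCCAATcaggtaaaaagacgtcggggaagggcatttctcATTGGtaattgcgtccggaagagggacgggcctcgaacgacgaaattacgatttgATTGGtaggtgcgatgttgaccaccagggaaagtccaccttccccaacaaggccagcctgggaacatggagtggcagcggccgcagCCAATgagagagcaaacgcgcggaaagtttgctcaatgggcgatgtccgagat
Both strands of all 35116 windows were searched for 6 motifs. TGACGTCA, the cAMP response element bound by ATF and CREB factors, was in 1.85% of windows and lay at bases -58 to -51 of PPP1R15A. TGACNNNGC (N is any base), the core of the antioxidant response element, was in 13.3% of windows and lay at 2 places in PPP1R15A, at bases -179 to -171 and -152 to -144. TGATGNAA, the core of the C/EBP-ATF element, was in 3.62% of windows and lay at bases -227 to -220 of PPP1R15B. The CCAAT box, CCAAT, was in 34.6% of windows, at 4 places in EIF2AK3, 2 in EIF2AK2 and 1 in PPP1R15B. The ER stress element, CCAAT and CCACG with 9 bases between them, found in 0.0769% of windows, had no match in the 7 members' windows. GAAA repeated after 2 bases, the core of the interferon-stimulated response element, was in 3.57% of windows and crossed the start of EIF2AK2 (chr2:37156971-37156992, minus strand), shown with its flanks and the match in capitals:
EIF2AK2: caagggGAAAACGAAActgaga
No match overlapped one of another motif. A match describes the letters of the window and is not a bound site.

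After PZH the phosphatase subunit PPP1R15A rose 27.0-fold, the kinase EIF2AK3 (PERK) 2.80-fold and the phosphatase subunit PPP1R15B 1.81-fold. The kinases EIF2AK1 (HRI) and EIF2AK2 (PKR) fell 1.67-fold and 1.31-fold, and GCN1, which helps to activate EIF2AK4 on ribosomes, fell 1.09-fold. EIF2AK4 (GCN2) and IMPACT, which competes with EIF2AK4 for GCN1, did not pass the test. Thus 3 of 8 members were called higher and 3 lower, where 39.3% of all 15006 genes tested were called higher, 40.9% lower and 80.3% either way, so the share of members called lay near that of all genes. CPM of the groups did not overlap for 6 of 8 members, against 75% of genes tested. The members' median log2 fold change was 0.05, beside -0.02 over all genes, whose quartiles were -0.75 and 0.64.

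**Figure D1:**
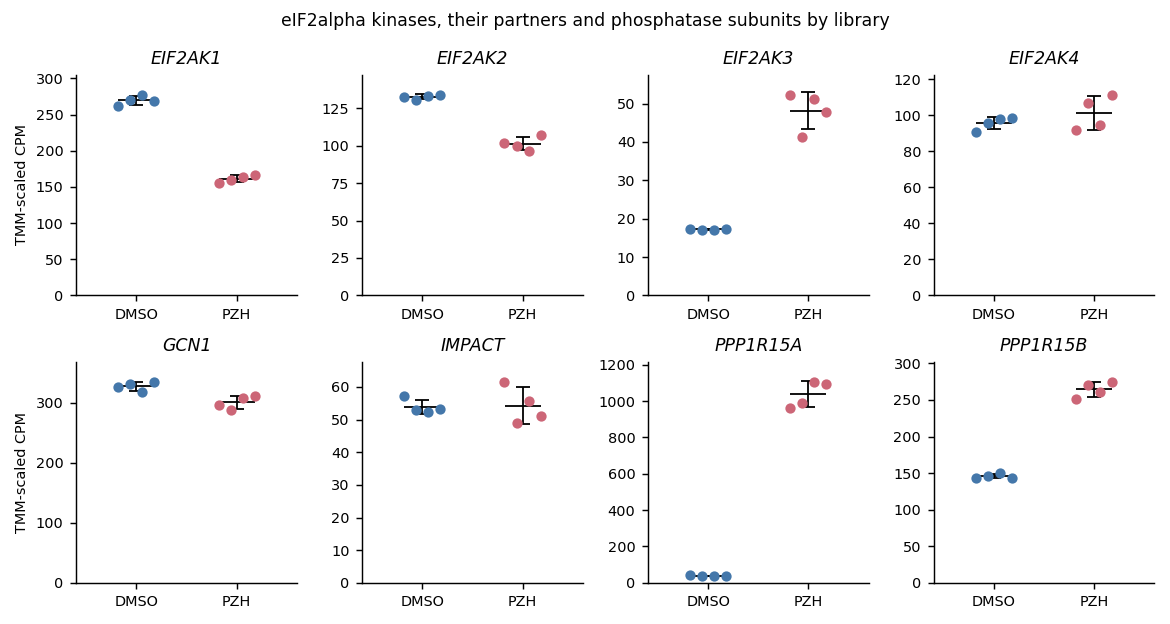
TMM-scaled CPM (y axes from 0, each with its own scale) of the 8 genes in the 4 DMSO and 4 PZH libraries; points are libraries in the order of their replicate number, the bar is the mean and the whiskers the SD. The groups overlap for EIF2AK4 and IMPACT only, and PPP1R15A goes from 38.4 to 1038 CPM.

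With this many genes called, a small fold depends on the scaling. Without scaling factors the median over all genes went from -0.02 to -0.28 on the log2 scale, and 3 members were called higher and 5 lower, beside 29.8% and 51.1% of all genes and 80.9% either way. Unscaled CPM of the groups did not overlap for 7 of 8 members, against 75.6% of genes tested. The 5 were EIF2AK1, EIF2AK2 and GCN1, which also fell with TMM factors, and EIF2AK4 and IMPACT, which did not pass with TMM factors. Changes are therefore given relative to TMM, and ratios of 2 genes within a library, which carry no scaling, follow further on.

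**Figure D2:**
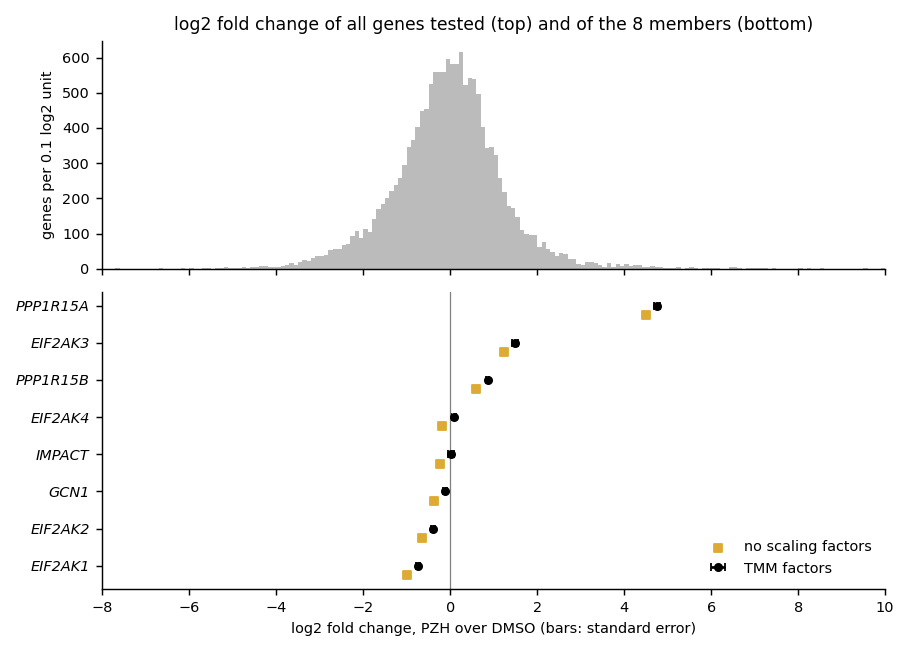
Top, number of the 15006 genes tested per 0.1 log2 unit of fold change, PZH over DMSO; bottom, the 8 members with TMM factors (circles, bars are the standard error) and without scaling factors (squares) on the same axis. The squares sit to the left of the circles for all 8 members, and for EIF2AK4 and IMPACT they sit on the other side of 0.

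Among the kinases, EIF2AK3 (PERK), which spans the ER membrane and is held inactive by the chaperone HSPA5, was the only one called higher. It stood at 17.3, 17.1, 17.1 and 17.4 CPM in DMSO replicates 1 to 4 and at 52.3, 41.4, 51.1 and 47.9 CPM in PZH replicates 1 to 4. All 4 PZH libraries lay above all 4 DMSO libraries, and PZH replicate 2 was the lowest of them. The log2 fold change was 1.48 ± 0.07 (SE; edgeR adjusted p = 1.23e-14), which 1253 of the tested genes exceeded. Its spread was 0.752% of the mean in DMSO and 10.1% in PZH, where counting error alone gives 5.21% and 3.50%. Exons of EIF2AK3 share 781 bases, 14.4% of their length, with the antisense gene AC104134.1 in GENCODE release 29, which held 0 counts over the 4 DMSO and 8 over the 4 PZH libraries; whether reads were counted by strand was not stated.

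EIF2AK1 (HRI) was the most abundant kinase per length and fell most. It stood at 262, 270.4, 278 and 269 CPM in DMSO and at 155, 160.3, 164 and 167 CPM in PZH. Every PZH library lay far below every DMSO library, and within PZH replicates 3 and 4 were the higher pair. The log2 fold change was -0.74 ± 0.04 (SE; edgeR adjusted p = 4.49e-13), with 25.3% of the genes tested below it. Exons of EIF2AK1 share 532 bases, 9.59% of their length, with AIMP2 on the opposite strand. AIMP2 held 2192 counts summed over the 4 DMSO and 1569 summed over the 4 PZH libraries. EIF2AK1 held 5632 to 5971 counts in each single DMSO library and 2717 to 2760 in each single PZH library. Each AIMP2 sum was thus below the count of EIF2AK1 in any single library of that group.

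EIF2AK2 (PKR), itself an interferon-inducible gene, stood at 133, 130.4, 133 and 134 CPM in DMSO and at 101, 100.1, 96.3 and 107 CPM in PZH. The groups were clearly apart although the change was small, with a log2 fold change of -0.39 ± 0.04 (SE; edgeR adjusted p = 4.23e-08). Of 16 interferon-stimulated genes on the list used here, 13 were tested. The list was chosen with earlier results of these data known and is not independent evidence of its direction. Of the 13 genes tested, 10 fell and 2 rose, beside 40.9% and 39.3% of all genes tested. Their median log2 fold change was -0.48, beside -0.02 over all genes. The steepest of their falls were those of the antiviral genes IFIT1 (12.8-fold) and OAS3 (11.5-fold) and of IFI6 (4.47-fold), and the signalling factors STAT2 and IRF1 rose 1.63-fold and 1.42-fold. OAS3, the most abundant of these 5 in DMSO but not in PZH, went from 82.1 ± 3.37 to 7.15 ± 1.17 CPM.

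EIF2AK4 (GCN2) stood at 90.7, 95.7, 97.6 and 98.2 CPM in DMSO and at 91.7, 107, 94.4 and 111 CPM in PZH. PZH replicates 1 and 3 lay within the DMSO range and replicates 2 and 4 above it. The log2 fold change was 0.08 ± 0.06 (SE; edgeR adjusted p = 0.194). Leaving out PZH replicate 1 gave a call in the higher direction (0.15, edgeR adjusted p = 0.0175). Leaving out the scaling factors gave one in the lower direction (-0.18, edgeR adjusted p = 0.00320), so no direction is given for EIF2AK4. Its partner GCN1, a large ribosome-bound protein, stood at 327, 332, 318 and 335 CPM in DMSO and at 296, 289, 308 and 312 CPM in PZH. The closest libraries of the groups were 318 and 312 CPM, and the fall was the smallest of those called, with a log2 fold change of -0.12 ± 0.05 (SE; edgeR adjusted p = 0.0171). The call for GCN1 was lost with RLE factors (adjusted p = 0.0661) and without PZH replicate 1 (-0.09, adjusted p = 0.0649), and with each library's GC trend removed the value was 0.07 (adjusted p = 0.161). IMPACT stood at 57.2, 52.9, 52.2 and 53.2 CPM in DMSO and at 61.6, 48.8, 55.6 and 51.2 CPM in PZH, a wider spread around nearly the same mean. Its log2 fold change was 0.01 ± 0.06 (SE; edgeR adjusted p = 0.868), and unscaled counts gave a call in the lower direction (-0.25, adjusted p = 0.00387).

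Of the phosphatase subunits, PPP1R15A is the stress-inducible one and a known target of ATF4 and DDIT3 (CHOP). It stood at 40.2, 38.8, 37.2 and 37.6 CPM in DMSO and at 962, 988, 1105 and 1096 CPM in PZH. The lowest PZH library was far above the highest DMSO library, and PZH replicates 3 and 4 were the higher pair. The log2 fold change was 4.75 ± 0.06 (SE; edgeR adjusted p = 7.09e-24), and 62 of the 15006 genes tested had a larger one. PPP1R15B, the constitutive subunit, stood at 144, 146, 150.0 and 144 CPM in DMSO and at 252, 270.1, 261 and 275 CPM in PZH. It rose in every PZH library above every DMSO library, with a log2 fold change of 0.86 ± 0.04 (SE; edgeR adjusted p = 3.49e-14). The fold was 1.51 without scaling factors.

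Per length, the order of the members differed between the groups. Levels here are CPM per kilobase of exon, with exon lengths from GENCODE release 29. In DMSO the order was EIF2AK1 (48.6 ± 1.15), GCN1 (34.0 ± 0.799), PPP1R15B (27.9 ± 0.575), PPP1R15A (12.4 ± 0.443), EIF2AK2 (12.3 ± 0.146), IMPACT (11 ± 0.458), EIF2AK4 (7.99 ± 0.284) and EIF2AK3 (3.17 ± 0.0238), with ranges that overlapped between neighbours only for PPP1R15A and EIF2AK2. In PZH it was PPP1R15A (336 ± 23.6), PPP1R15B (50.6 ± 1.95), GCN1 (31.2 ± 1.11), EIF2AK1 (29.1 ± 0.938), IMPACT (11 ± 1.14), EIF2AK2 (9.41 ± 0.409), EIF2AK3 (8.87 ± 0.899) and EIF2AK4 (8.46 ± 0.799). Here GCN1 and EIF2AK1 overlapped, and so did each neighbouring pair from IMPACT to EIF2AK4. EIF2AK3 thus went from the lowest level of the 8 genes to one that overlapped that of EIF2AK2, and with these lengths that of EIF2AK4 too.

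As shares of the 4 kinases' summed level per kilobase, EIF2AK1 went from 67.4 ± 0.410% to 52.1 ± 0.881%, and EIF2AK3 from 4.4 ± 0.104% to 15.9 ± 1.67%. The share of EIF2AK4 went from 11.1 ± 0.233% to 15.1 ± 1.21%, and that of EIF2AK2 was 17.1 ± 0.345% and 16.9 ± 0.542%, with ranges that overlapped. The sum itself was 72.1 ± 1.40 CPM per kilobase in DMSO and 55.8 ± 1.64 in PZH. The length of EIF2AK4 is uncertain, with 11957 exon bases in all but 5499 in its principal transcript. With principal transcript lengths EIF2AK4 stood at 17.4 ± 0.617 CPM per kilobase in DMSO, above PPP1R15A but with an overlapping range. In PZH it stood at 18.4 ± 1.74, above IMPACT. EIF2AK3 was then at 3.71 ± 0.0279, again the lowest, and at 10.4 ± 1.05, overlapping EIF2AK2 (10.1 ± 0.438) but not EIF2AK4. IMPACT then lay above EIF2AK2 in DMSO, and EIF2AK1 above GCN1 in PZH, again with overlapping ranges for EIF2AK1 and GCN1. On that basis EIF2AK4 held 18.4% and 24.5% of the sum, EIF2AK3 3.92% and 13.9%, and EIF2AK1 63.8% and 48.2%, in DMSO and PZH.

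Ratios of 2 genes within a library carry no scaling, and each describes a gene relative to the other. Those over EIF2AK4 are relative to a gene for which no direction is given. The count ratio of PPP1R15A to PPP1R15B was 0.280, 0.265, 0.248 and 0.261 in DMSO and 3.82, 3.66, 4.23 and 3.99 in PZH. PPP1R15B had more counts than PPP1R15A in every DMSO library and fewer in every PZH library, a 14.9-fold difference (log2 3.90; exact two-sided permutation p = 0.0286, adjusted p = 0.0429 over 6 ratios). The smallest p that 70 assignments of 4 against 4 libraries allow is 0.0286. The adjusted p therefore depends on how many of the 6 ratios lie at this floor. All but PPP1R15A over PPP1R15B share EIF2AK4 and so are not independent of each other. Against EIF2AK4, EIF2AK3 had a ratio of 0.190, 0.179, 0.175 and 0.177 in DMSO and of 0.571, 0.387, 0.541 and 0.430 in PZH. It was higher in all 4 PZH libraries, by 2.64-fold. The ratio was highest in PZH replicates 1 and 3, where EIF2AK3 was highest and EIF2AK4 lowest among the PZH libraries. The ratio to EIF2AK4 fell 1.76-fold for EIF2AK1 and 1.38-fold for EIF2AK2, without overlap of the groups, and these ratios gave the same exact p and adjusted p as the first. For GCN1 the ratio to EIF2AK4 was 3.44 ± 0.147 in DMSO and 3.0 ± 0.290 in PZH (SD, n = 4; exact permutation p = 0.0571, adjusted p = 0.0686), and for IMPACT it was 0.565 ± 0.0442 and 0.544 ± 0.105 (exact permutation p = 0.629, also after adjustment). Without PZH replicate 3 the GCN1 ratio passed the threshold (log2 difference -0.24, exact permutation adjusted p = 0.0343).

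**Figure D3:**
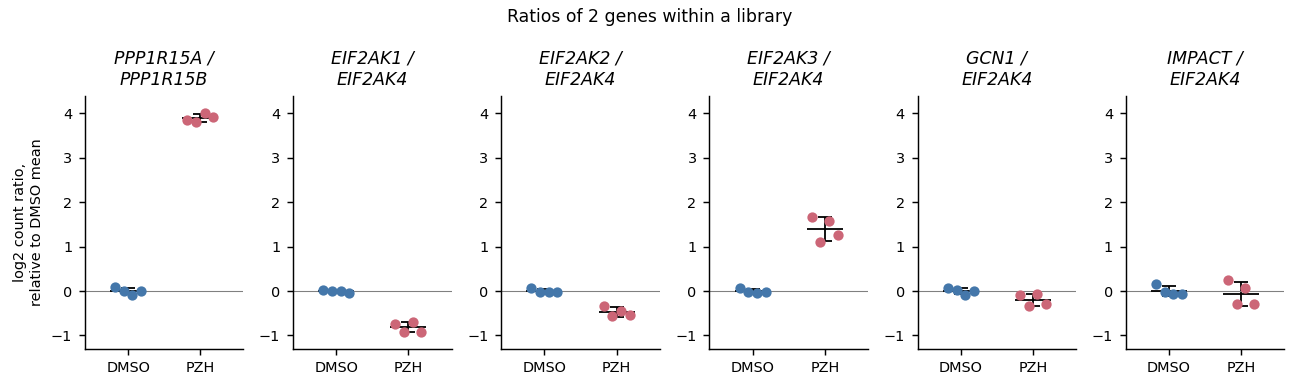
log2 of the count ratio of 2 genes in each library, relative to the mean of the 4 DMSO libraries (y axis, the same in each panel); points are libraries, the bar is the mean and the whiskers the SD. PZH lies 3.90 above DMSO for PPP1R15A over PPP1R15B and 1.40 above for EIF2AK3 over EIF2AK4, and the groups overlap for GCN1 and IMPACT over EIF2AK4.

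With TMM factors the 4 PZH libraries spread more than the DMSO libraries for all 8 members when the SD is set against the mean. The SD was 3.22% to 10.3% of the mean in PZH and 0.752% to 4.18% in DMSO. Without scaling factors EIF2AK1 and PPP1R15B went the other way. EIF2AK1 stood at 295 ± 6.64 unscaled CPM in DMSO and 148 ± 2.70 in PZH, and PPP1R15B at 160 ± 3.49 and 242 ± 3.50. Across genes too, replicate pairs differed more in PZH (chi-square over its degrees of freedom 4.03 to 12.3) than in DMSO (2.39 to 2.81). The labels give no batch for these libraries.

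The genes around the members were taken from lists of eIF2 and eIF2B, PP1, kinase regulators and effectors. The counts for these and the lists below stand beside 39.3% of all 15006 genes called higher, 40.9% lower and 80.3% either way. Without scaling factors these shares were 29.8%, 51.1% and 80.9%. A count near these shares is what genes in general gave and is not particular to its list. Of 10 genes of eIF2, eIF2B and their helpers, 5 rose and 4 fell, with a median log2 fold change of 0.11, or 3 and 6 with a median of -0.15 without scaling factors. EIF2S2, the beta subunit of eIF2, rose 2.26-fold from 181 ± 4.75 to 409 ± 4.67 CPM. EIF5, which triggers GTP hydrolysis by eIF2, rose 2.29-fold, and the eIF2B subunit EIF2B2 rose 1.77-fold. Another eIF2B subunit, EIF2B1, fell 1.78-fold from 54.3 ± 1.33 to 30.4 ± 3.87 CPM, and CDC123, an assembly factor of eIF2, fell 1.53-fold. EIF2S1, which encodes the alpha subunit that the kinases phosphorylate, stood at 201 ± 3.31 and 221 ± 7.63 CPM, with a log2 fold change of 0.14 ± 0.04 (edgeR adjusted p = 0.00662) that turned to -0.12 without scaling factors (adjusted p = 0.0102).

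Of the 3 catalytic subunits of PP1, which PPP1R15A and PPP1R15B recruit, 2 fell and 1 was called higher. PPP1CA fell 1.39-fold from 196 ± 3.82 to 142 ± 7.37 CPM, and PPP1CC fell 1.55-fold from 376 ± 3.23 to 243 ± 8.70 CPM. PPP1CB was called higher, 1.20-fold from 190.0 ± 3.21 to 228 ± 8.73 CPM, but had a log2 fold change of 0.00 without scaling factors (adjusted p = 0.954). PP1 serves many other regulatory subunits as well.

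Among 10 regulators of the kinases, 5 rose and 2 fell, with a median log2 fold change of 0.32, or 5 and 5 with a median of 0.06 without scaling factors. The largest rises on the list were those of HSPA5 and DNAJC3: HSPA5 (BiP), which binds the ER domain of PERK, rose 18.9-fold, and DNAJC3 (p58IPK), an ER co-chaperone described as an inhibitor of PERK and PKR, rose 3.15-fold from 74.2 ± 2.91 to 234 ± 21.6 CPM. MAP3K20, a kinase that senses colliding ribosomes, rose 1.97-fold, and the adaptor NCK1 and the PKR activator PRKRA (PACT) each rose 1.49-fold. On the side of HRI, the mitochondrial protease OMA1 fell 2.0-fold from 23.7 ± 2.11 to 11.9 ± 0.405 CPM. Its relay DELE1, which the table lists under an older symbol, stood at 43.3 ± 2.83 and 39.6 ± 1.40 CPM (edgeR adjusted p = 0.0557), and unscaled counts gave a call in the lower direction (-0.39, adjusted p = 1.16e-05).

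Factors that can bring initiator tRNA to the ribosome apart from eIF2, or free subunits for it, went both ways, with 2 of 5 higher and 3 lower. EIF2A rose 2.25-fold from 147 ± 2.91 to 330.2 ± 14.1 CPM, and MCTS1 rose 1.47-fold. EIF2D fell 1.25-fold, DENR, the partner of MCTS1, fell 1.15-fold, and EIF5B, which joins the subunits, fell by 0.36 on the log2 scale.

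The other sensors of ER stress rose beside EIF2AK3: ERN1 (IRE1) 6.62-fold, ATF6 3.09-fold and XBP1, the target of ERN1, 5.09-fold. Of 8 genes read out after eIF2alpha phosphorylation, 7 rose and none fell with TMM factors, among them CHAC1 59.0-fold, SESN2 28.3-fold and TRIB3, which dampens ATF4 and CHOP, 16.1-fold; the list was drawn up with results of these libraries known and is not independent evidence of its direction. ATF5, another gene controlled by upstream reading frames, had a level of 18.5 to 20.3 CPM in DMSO and 18.0 to 21.6 CPM in PZH (edgeR adjusted p = 0.508), and unscaled counts gave a call in the lower direction (-0.20, adjusted p = 0.0361).

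**Figure D4:**
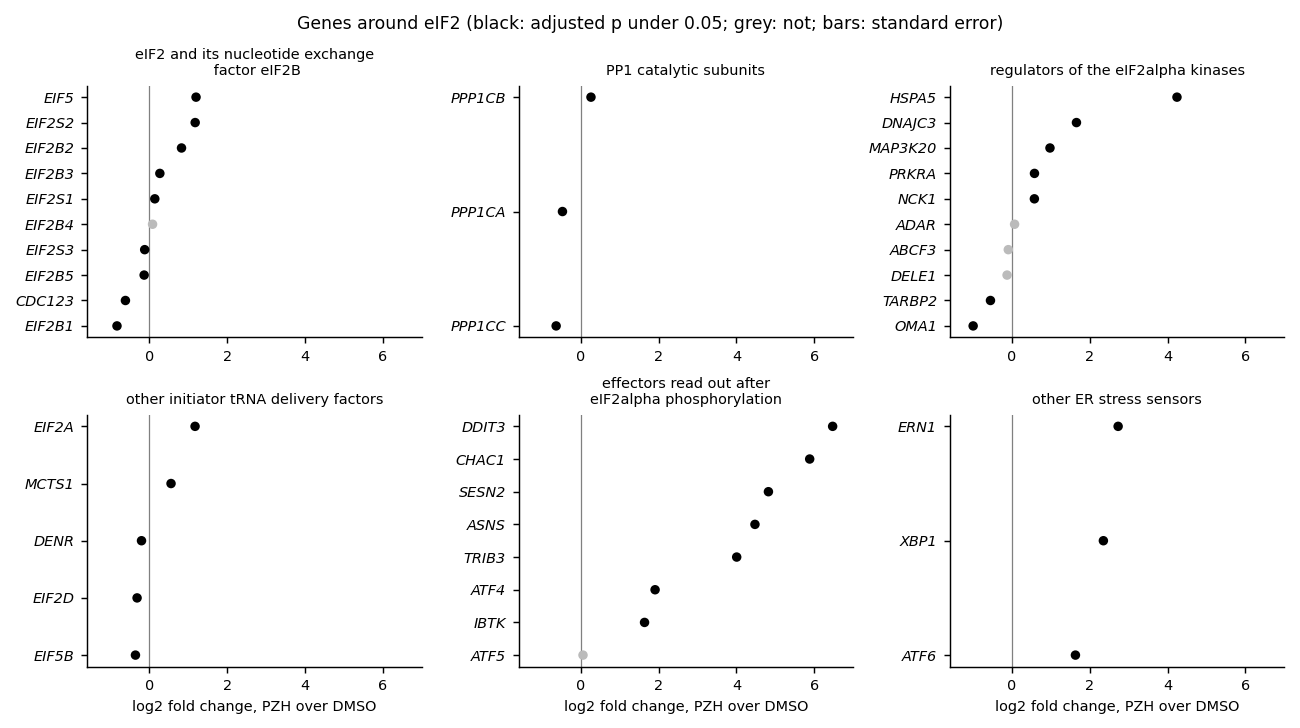
log2 fold change, PZH over DMSO with TMM factors (x axis, the same in each panel), of the genes on 6 lists around eIF2; black points have an adjusted p under 0.05, grey ones do not, and bars are the standard error. HSPA5 at 4.24 stands apart from the other kinase regulators, and 7 of the 8 effectors lie at 1.64 or above.

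Patterns were compared with 7961 genes that had a mean log2 CPM of at least 4 over the 8 libraries. Clone, LOC, LINC and open reading frame names were left out, and a gene low in DMSO could pass through its level in PZH. The genes most like PPP1R15A and EIF2AK3 were found by the root mean square difference of log2 CPM, each centred on its mean over the 8 libraries. For PPP1R15A these were SESN2, a stress sensor that restrains mTORC1 (difference 0.0692), the autophagosome protein MAP1LC3B (0.129) and the MYC antagonist MXD1 (0.175). MAP1LC3B rose 23.1-fold from 118 ± 3.92 to 2729 ± 209 CPM. MXD1, which passed through its level in PZH, rose 23.0-fold from 5.40 ± 0.652 to 125 ± 7.25 CPM. For EIF2AK3 they were LRIF1 (0.0436), SLC7A1, a transporter of cationic amino acids (0.0464), and FBXO30 (0.0487), which rose 2.71-fold, 2.83-fold and 2.82-fold. The likeness is a description over 8 libraries that share 1 contrast. It picks genes of a like fold, so the folds printed here follow from the selection.

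**Figure D5:**
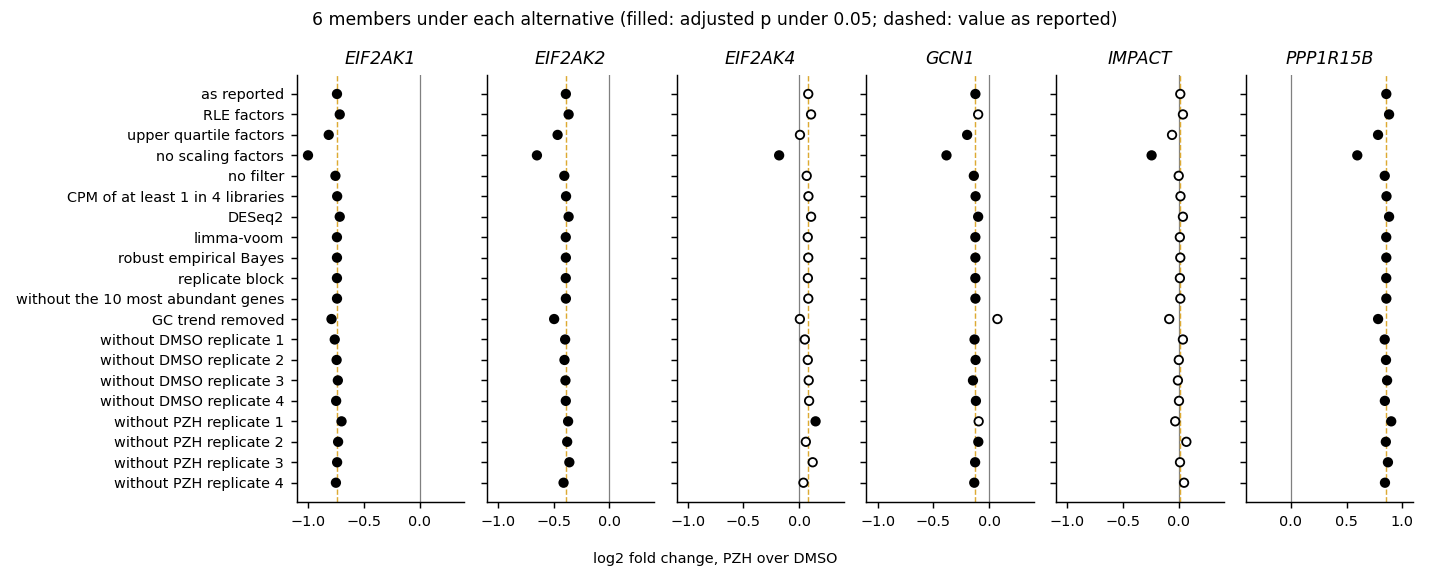
log2 fold change, PZH over DMSO (x axis), of 6 members as reported and under 19 alternatives (rows); filled points have an adjusted p under 0.05, open ones do not, and the dashed line is the value as reported. EIF2AK1, EIF2AK2 and PPP1R15B are filled in every row. EIF2AK4, GCN1 and IMPACT lie nearer 0 as reported, and GCN1 is at -0.38 without scaling factors. EIF2AK4 changes sides without scaling factors and GCN1 with the GC trend removed. IMPACT changes sides with the scaling, the filter, the GC trend or a library left out.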

How the data were processed

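Libraries of poly(A) RNA (NEBNext Ultra RNA, per the labels' protocols) from 8 HCT116 samples were sequenced. What the authors deposited is a single table of raw counts by gene symbol, with no normalization; 25 symbols read as dates and stayed in library sizes and tests. Upstream, the submitters' processing notes list HISAT2 2.1.0, FastQC 0.11.5, DESeq 1.28.0 and StringTie 1.3.3b with no roles; for build, annotation and use of strand, none is given in the sources used here. No replicate pair agreed within counting noise (chi-square over its degrees of freedom 2.39 to 2.81 in DMSO, 4.03 to 12.3 in PZH).

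Genes were kept by filterByExpr (minimum count 10, minimum total 15), scaled with TMM and tested in edgeR 4.0.16 (R 4.3.3; glmQLFit, glmQLFTest, two-sided, group only) with Benjamini-Hochberg adjustment over 15006 genes and a threshold of 0.05. The SE was obtained by dividing a log2 fold change by the square root of its F. Ratios within libraries were tested by exact permutation. The script was tested on simulated data with few changed genes, balanced in direction, and with the same spread in both groups. These libraries differ from that, so the test cannot bear on calls that depend on the scaling. Alternatives (scaling, filters, GC trend, 1 library left out) included limma 3.58.1 and DESeq2 1.42.0. The members and 11 gene lists were chosen with earlier results of these data known. The text names all members and the 3 called genes of each pathway list with the smallest p (all genes of lists of 5 or fewer). It also names the 3 genes closest in pattern to members that changed at least 2-fold. Of the cell type markers only some are named. EIF2S1, EIF2B1, CDC123, OMA1, DELE1, NCK1, PRKRA, ATF5, IFI6, IRF1, CDX2 and VIL1 were added after their values were seen. A floor of 3 counts is 0.151 to 0.165 unscaled CPM, and counting errors cover counting only.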

Additional observations from a re-analysis of the deposited data

Results flagged for a closer look

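Of 28 sets of 4 libraries examined (8 members and 6 ratios, in each group), 1 held a library set far from the others by Dixon's ratio, where chance gives about 1 in 20. The ratio of EIF2AK2 to EIF2AK4 was 1.46 in DMSO replicate 1, against 1.36 to 1.37 in the other DMSO libraries (Dixon's ratio 0.974, above the 95% critical value). EIF2AK4 was lowest there among the DMSO libraries, at 90.7 CPM, and EIF2AK2 stood at 133 CPM. All 4 ratios in PZH, 0.936 to 1.11, lay below it.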

How the results depend on the processing

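For the 8 members, 146 of 152 values under alternatives kept their side of the threshold and, where called, their direction, among them all 19 for each of PPP1R15A (log2 fold change 4.49 to 4.95), EIF2AK3 (1.23 to 1.56), PPP1R15B (0.60 to 0.90), EIF2AK1 (-1.0 to -0.70) and EIF2AK2 (-0.65 to -0.36). IMPACT, close to 0, took both signs without a call (-0.0876 to 0.0664). Without scaling factors EIF2AK4 was -0.18, IMPACT was -0.25, and 5 members were called lower in place of 3. GCN1 was -0.38 without scaling factors, -0.10 with RLE factors and 0.0747 with the GC trend removed. On leaving out 1 library, EIF2AK4 ran from 0.0378 to 0.147 and GCN1 from -0.145 to -0.0935. The cause was not tested. Among the lists, without scaling factors 3 genes of eIF2 and eIF2B were higher in place of 5, 0 PP1 catalytic subunits in place of 1, 5 kinase regulators were lower in place of 2, and 1 effector was lower in place of 0; with RLE factors 2 genes of eIF2 and eIF2B were lower in place of 4, and on leaving out 1 library 2 to 4. Counts over all genes stayed within 1.5 times under all alternatives. With the replicate number as a block, no call among the members changed; same-numbered libraries correlated at 0.000736 to 0.0113 in their deviations. For the ratios, pairing by number kept log2 differences of 3.90 for PPP1R15A over PPP1R15B, and over EIF2AK4 of 1.40 for EIF2AK3, -0.82 for EIF2AK1 and -0.47 for EIF2AK2, but the adjusted p was 0.188, since 4 pairs allow no exact p below 0.125. On leaving out 1 library the difference for GCN1 over EIF2AK4 ran from -0.24 to -0.15. Depth limits EIF2AK3 most, with 362 to 379 counts per DMSO library.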
